A study of Mus musculus with 6 samples.

Results

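The genes described here are the receptors through which cells read WNT signals: 8 Frizzled genes (Fzd1, Fzd2, Fzd4, Fzd5, Fzd6, Fzd7, Fzd8 and Fzd9) and the co-receptor genes Lrp5 and Lrp6. They were taken by name from a table of RNA sequencing counts, and all 10 were found among its 29493 genes. Fzd3 also has a row there but is not among the genes chosen, is not analysed here and enters no Frizzled sum, share or order of levels below. The cells were HT22, a neuronal line derived from mouse hippocampus, carrying in both groups a stable transgene for V5-tagged KLF13 held in check by the tet repressor (labelled HT22-TR/TO-V5Klf13-1). They were harvested after 8 hours with doxycycline at 1 µg/ml (Dox, n = 3) or with vehicle (Vehicle, n = 3). KLF13 is a zinc-finger transcription factor, and the series asks how it acts in hippocampal neurons. Doxycycline was not given to cells lacking the transgene in these libraries, so effects of KLF13 and of the drug cannot be told apart. Nothing in the labels states that libraries of 1 group came from different cultures. The p-values therefore rest on a spread between libraries that could be technical.

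Frizzleds are multi-pass membrane receptors that hold a WNT protein in a cysteine-rich outer domain. In the beta-catenin branch of the pathway the same WNT also binds LRP5 or LRP6, a single-pass co-receptor, and the pair recruits Dishevelled and Axin to the membrane, which frees beta-catenin from destruction. Frizzleds also act without LRP in planar cell polarity. In the hippocampus WNT signals are needed for the structure to form, and in its neurons they act on dendrites and synapses.

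Library totals ran from 38566798 to 52930384 counts. Levels are given as CPM, counts scaled to a common effective library size. Klf13 itself had 205, 188 and 184 CPM in the Dox libraries, against 37.0, 36.1 and 39.1 CPM in the Vehicle libraries, so the targeted gene was high in every library labelled Dox. These counts cannot separate the endogenous gene from the transgene. Of 12 neuronal markers, 7 were found and 5 had enough counts to test, of which 4 fell, among them the neuronal tubulin Tubb3 (14.7 CPM with Dox and 60.7 CPM with Vehicle on average). The summed level of the 7 was 31.9 to 33.4 CPM with Dox and 95.7 to 96.8 CPM with Vehicle, with Map2 and Gap43 at or under 0.265 CPM in every library. The 10 fibroblast markers summed to 10025 to 10614 CPM with Dox and 12562 to 13291 CPM with Vehicle, and 7 of the 9 tested fell. Over all 18067 tested genes, 28.8% were called lower by the test described below. The neuronal and fibroblast sums were both lower with Dox, as were several receptors below, and their part in those results was not tested. Summed oligodendrocyte markers were 1.03 to 1.17 CPM with Dox and 1.66 to 2.25 CPM with Vehicle, and microglial markers 0.466 to 0.611 CPM with Dox and 0.360 to 0.504 CPM with Vehicle. Endothelial markers summed to 3.76 to 4.84 CPM with Dox and 2.93 to 3.34 CPM with Vehicle, and astrocyte markers to 44.1 to 47.3 CPM with Dox and 37.3 to 40.1 CPM with Vehicle, with Gfap at or under 0.258 CPM. Nearly all of the astrocyte sum was Slc1a3, which averaged 45.7 CPM with Dox and 38.4 CPM with Vehicle. Aldh1l1 and S100b were at or under 0.186 CPM in every library.

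Of the 10 genes, 4 Frizzleds fell with Dox and none rose. Fzd5 and Fzd7 were close to a 2-fold fall, Fzd1 fell by 37.4% and Fzd2, the most abundant of the 8 Frizzleds chosen, fell by 0.32 on the log2 scale. Fzd4, Fzd6 and Lrp6 did not pass the test, and Fzd8, Fzd9 and Lrp5 had too few counts to be tested. Calls are by edgeR's quasi-likelihood test on all 18067 genes with enough counts, at an adjusted p under 0.05. The 4 called genes of 7 tested stand beside 54.7% of all tested genes called in either direction, 28.8% lower and 25.9% higher, so the share of receptors that changed is near the background. CPM did not overlap between groups for 5 of the 7, against 64.0% of all tested genes. The median log2 fold change was -0.32 over the 7 tested receptors and 0.02 over all tested genes. Fewer copies per cell and fewer cells expressing a gene cannot be told apart in these bulk libraries. In the authors' deposited table the same 4 genes carry a call, with log2 fold changes of -0.67 for Fzd1, -0.32 for Fzd2, -1.01 for Fzd5 and -0.98 for Fzd7, and the other 6 do not.

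**Figure D1:**
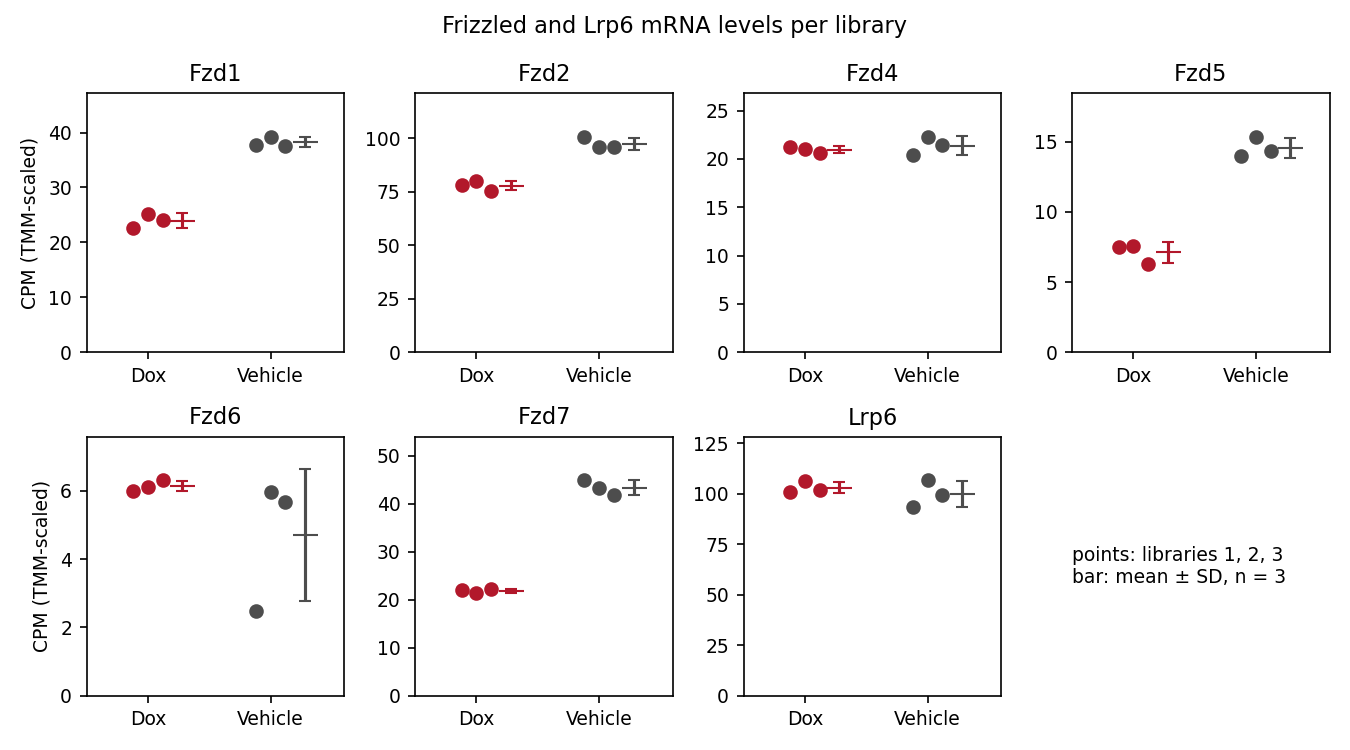
TMM-scaled CPM (vertical axis, from 0, with its own scale in each panel) of the 7 tested receptors, with Dox at the left and Vehicle at the right of each panel. Points are libraries 1, 2 and 3 and bars are the mean ± SD (n = 3). Fzd1, Fzd2, Fzd5 and Fzd7 lie lower in all 3 Dox libraries, and Vehicle 1 stands apart at 2.49 CPM for Fzd6.

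One short stretch that the Frizzleds share lies in the cytoplasmic tail: lysine-threonine, any 3 residues, then tryptophan, which binds Dishevelled. A search of the coding sequences (GENCODE M21, GRCm38) found it exactly once, in frame, in each of the 8 Frizzled genes. The stretches of the 6 tested Frizzleds are shown because every gene compared here carries one, whether it fell or not. Capitals mark the codons for lysine, threonine and tryptophan.
Fzd7: AAGACCctgcagtcaTGG
Fzd5: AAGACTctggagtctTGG
Fzd1: AAGACActgaattccTGG
Fzd2: AAGACActgcactcgTGG
Fzd4: AAAACTcttcacacgTGG
Fzd6: AAGACGtgcacagaaTGG

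These lie at chr1:59484607-59484624 (plus strand), chr1:64735011-64735028 (minus), chr5:4755706-4755723 (minus), chr11:102606373-102606390 (plus), chr7:89408241-89408258 (plus) and chr15:39033949-39033966 (plus), in the order printed. In Fzd7 the stretch begins at codon 550 of 572, in Fzd1 at codon 620 of 642 and in Fzd2 at codon 548 of 570, the same distance from the end. Fzd6 differs in layout, with the stretch at codon 498 of 709 and a long tail after it. Fzd1, Fzd2 and Fzd7 also share the longest runs of letters: Fzd1 has an exact run of 47 bases in common with Fzd2 and one of 47 bases with Fzd7, and Fzd2 and Fzd7 share 38 bases. Over all 45 pairs of the 10 genes, 0 pairs shared a run of 50 bases or more in their longest coding transcripts. How the authors counted reads that match several genes is not given in the sources used here.

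Fzd7, a receptor known in mouse for its part in intestinal stem cells and, in hippocampal neurons, dendritic spines, fell with the smallest p of the group. Its level was 22.0, 21.4 and 22.1 CPM in the Dox libraries, against 44.9, 43.3 and 41.8 CPM in the Vehicle libraries. All 3 Dox libraries lay far below the lowest Vehicle library and the groups did not overlap. The log2 fold change was -0.99 ± 0.041 (SE; 95% interval -1.09 to -0.89, adjusted p = 6.0e-06 by edgeR's quasi-likelihood test), a 1.98-fold fall. Over all tested genes, 8.18% had a lower log2 fold change. Fzd7 is a gene of 1 exon on chromosome 1, 59482424 to 59486955 (plus strand), and shares 50 or more exonic bases with no other annotated gene.

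Fzd5, which in mouse is needed for yolk sac vessels and which acts at hippocampal synapses, was lower in abundance. It had 7.49, 7.58 and 6.25 CPM with Dox, against 14.0, 15.4 and 14.4 CPM with Vehicle. Every Dox library was below every Vehicle library, with Dox 3 the lowest of all. This gave a log2 fold change of -1.04 ± 0.088 (SE; 95% interval -1.25 to -0.82, edgeR adjusted p = 1.0e-04), a 2.05-fold fall. Its interval overlaps that of Fzd7, and a difference between these falls was not tested. Fzd5 lies on chromosome 1, 64730558 to 64737751 (minus strand), and shares 1233 exonic bases with Gm38058 on the other strand. Gm38058 had 2, 2 and 45 counts in Dox 1, 2 and 3, and 7, 3 and 11 counts in Vehicle 1, 2 and 3, while Fzd5 had 291 to 745 counts, and without the strand setting, reads of the pair cannot be told apart.

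Fzd1, which shares roles in heart and palate formation with Fzd2 in mouse, came next. It had 22.5, 25.2 and 24.0 CPM with Dox, against 37.8, 39.3 and 37.6 CPM with Vehicle. The highest Dox library was far below the lowest Vehicle library. On the log2 scale the fold change was -0.68 ± 0.052 (SE; 95% interval -0.80 to -0.55, edgeR adjusted p = 6.4e-05). It is a gene of 1 exon on chromosome 5, 4753839 to 4758035 (minus strand).

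Fzd2, a receptor for WNT5A among others, changed least of the 4. It had 78.0, 80.1 and 75.5 CPM with Dox, against 100.7, 95.7 and 95.6 CPM with Vehicle. The highest Dox library was still below the lowest Vehicle library. The log2 fold change was -0.32 ± 0.036 (SE; 95% interval -0.409 to -0.235, edgeR adjusted p = 3.7e-04), and with an offset for the GC content of transcripts it was -0.19 (adjusted p = 0.002). Fzd2 has 1 exon on chromosome 11, 102604396 to 102608058 (plus strand).

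Fzd4, the receptor for norrin in retinal vessels as well as for WNTs, did not pass the test. It had 21.3, 21.1 and 20.6 CPM with Dox, against 20.4, 22.3 and 21.4 CPM with Vehicle, and the Dox values lay inside the Vehicle range. Its log2 fold change was -0.03 ± 0.048 (SE; 95% interval -0.14 to 0.09, edgeR adjusted p = 0.68), so a fall of the size seen for Fzd1 or Fzd7 lies outside its interval. With an offset for transcript length it was 0.14 (adjusted p = 0.017) and passed as a rise. Fzd4 lies on chromosome 7, 89404355 to 89413134 (plus strand).

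Fzd6, known in mouse for orienting hair follicles through planar polarity, had 6.01, 6.12 and 6.32 CPM with Dox, against 2.49, 5.98 and 5.69 CPM with Vehicle. The groups did not overlap, but by a narrow margin, and Vehicle 1 alone was far below the other 5 libraries. Its count was 94 in Vehicle 1, against 249 and 295 in Vehicle 2 and 3 and 256 to 302 with Dox. The log2 fold change of 0.37 ± 0.30 (SE; 95% interval -0.36 to 1.10, edgeR adjusted p = 0.34) rests on that library: without Vehicle 1 it was 0.08 (adjusted p = 0.41), and without Vehicle 2 it was 0.57 (adjusted p = 0.22). A Vehicle 1 level below 50% of the lower of the other Vehicle libraries, 43.8% for Fzd6, was found in 23 of 5116 tested genes with a mean of 2 to 20 CPM. Fzd6 has 7 exons on chromosome 15, 39006034 to 39038188 (plus strand), and shares 152 exonic bases with Gm26704, which is not analysed here.

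Fzd8 and Fzd9 were at the limit of detection. Fzd8 had 3, 0 and 0 counts in the Dox libraries and 0, 2 and 0 in the Vehicle libraries, and Fzd9 had 0, 2 and 0 counts with Dox and 0, 2 and 0 with Vehicle. No library exceeded 3 counts, the limit that a count of 0 allows, which equals 0.0579 to 0.0795 CPM here. No fold is given, and a difference was not detectable at this depth. These floors cover counting error only, and they hold only if the deposited values are reads counted directly, which the sources used here do not state.

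Lrp6 gave nearly all co-receptor counts in these cells. It had 100.7, 106 and 102 CPM with Dox, against 93.7, 107 and 99.4 CPM with Vehicle, and the Dox range lay within the Vehicle range. The log2 fold change was 0.04 ± 0.052 (SE; 95% interval -0.08 to 0.17, edgeR adjusted p = 0.52). Offsets and scaling moved it: it was 0.26 with the transcript length offset (adjusted p = 3.2e-04) and 0.14 with upper-quartile scaling (adjusted p = 0.046), so Lrp6 passed as a rise in those. Lrp6 spans 23 exons on chromosome 6, 134446476 to 134566965 (minus strand), and at 9368 bases has the longest transcript of the 10 genes.

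Lrp5 was nearly absent from the counts. It had 0, 2 and 0 counts with Dox and 2, 0 and 4 counts with Vehicle. Pooled over libraries, Lrp5 made up 0.0140% of 14275 Lrp5 and Lrp6 counts with Dox (exact 95% binomial interval 0.00170 to 0.0506%) and 0.0457% of 13139 with Vehicle (0.0168 to 0.0994%). These intervals treat counts as independent and cover counting error only, not the spread between libraries, and no comparison of the groups is made from them. LRP6 carries on its tail proline-rich stretches (3 prolines, serine or threonine, proline, any residue, serine or threonine) whose phosphorylation recruits Axin. A search for exactly this pattern found 3 in frame in Lrp6, and stretches that depart from it were not sought. The 3 are printed because Lrp6 supplied nearly all co-receptor counts in both groups, with the fixed codons in capitals.
Lrp6 codon 1487: CCACCACCATCGCCTgccACA
Lrp6 codon 1569: CCACCGCCCACACCCcgaAGC
Lrp6 codon 1604: CCACCACCCTCCCCCtgcACG

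They lie on the minus strand at chr6:134453618-134453638, chr6:134450903-134450923 and chr6:134450798-134450818 (GRCm38). Lrp5 holds 3 such stretches as well.

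**Figure D2:**
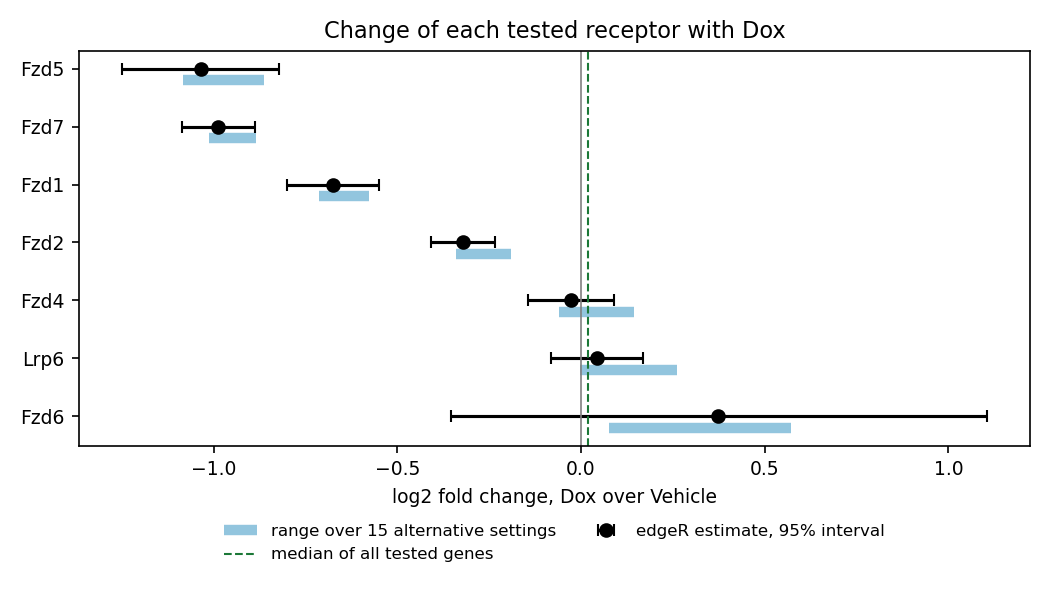
Log2 fold change, Dox over Vehicle (horizontal axis), of the 7 tested receptors, from the lowest at the top. Black points and bars are edgeR estimates with 95% intervals, blue bars the range over 15 alternative settings, and the dashed line the median of all tested genes (0.02). The intervals of Fzd5, Fzd7, Fzd1 and Fzd2 lie below 0 and those of Fzd4, Lrp6 and Fzd6 include 0.

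Levels per length put the receptors in order. As mean CPM per kilobase of transcript, the Dox libraries held Fzd2 at 21.3 ± 0.63, Lrp6 at 11.0 ± 0.30, Fzd1 at 5.70 ± 0.32, Fzd7 at 4.82 ± 0.086, Fzd4 at 3.12 ± 0.049, Fzd6 at 1.42 ± 0.036 and Fzd5 at 1.03 ± 0.11 (SD, n = 3). In the Vehicle libraries the order was Fzd2 at 26.6 ± 0.80, Lrp6 at 10.7 ± 0.70, Fzd7 at 9.56 ± 0.34, Fzd1 at 9.11 ± 0.22, Fzd4 at 3.18 ± 0.14, Fzd5 at 2.11 ± 0.10 and Fzd6 at 1.09 ± 0.45 (SD, n = 3). Neighbours did not overlap between libraries in either group except Fzd7 and Fzd1 with Vehicle. With Dox, Fzd1 stood above Fzd7 and Fzd6 above Fzd5. Transcript lengths are those of GENCODE M21, which may differ from the authors' annotation.

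Summed mRNA of the 8 chosen Frizzled genes was lower with Dox while the LRP sum overlapped between groups. This sum was 157, 162 and 155 CPM with Dox, against 220, 222 and 217 CPM with Vehicle. Lrp5 and Lrp6 together gave 101, 106 and 102 CPM with Dox, against 93.7, 107 and 99.5 CPM with Vehicle. Per kilobase, Fzd2 made up 56.9 ± 0.57% of the summed mRNA of these 8 genes with Dox and 51.5 ± 1.3% with Vehicle, Fzd7 12.9 ± 0.51% with Dox and 18.5 ± 0.47% with Vehicle, and Fzd4 8.35 ± 0.16% with Dox and 6.16 ± 0.29% with Vehicle (SD, n = 3 each). Ratios within a library do not depend on scaling. The Fzd7 to Fzd4 ratio of counts was 1.04, 1.02 and 1.07 with Dox, against 2.20, 1.94 and 1.96 with Vehicle. The Fzd7 to Fzd1 ratio was 0.977, 0.849 and 0.922 with Dox, against 1.19, 1.10 and 1.11 with Vehicle, so the groups did not overlap in either ratio. These sums, shares and ratios are given as descriptions and were not tested.

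**Figure D3:**
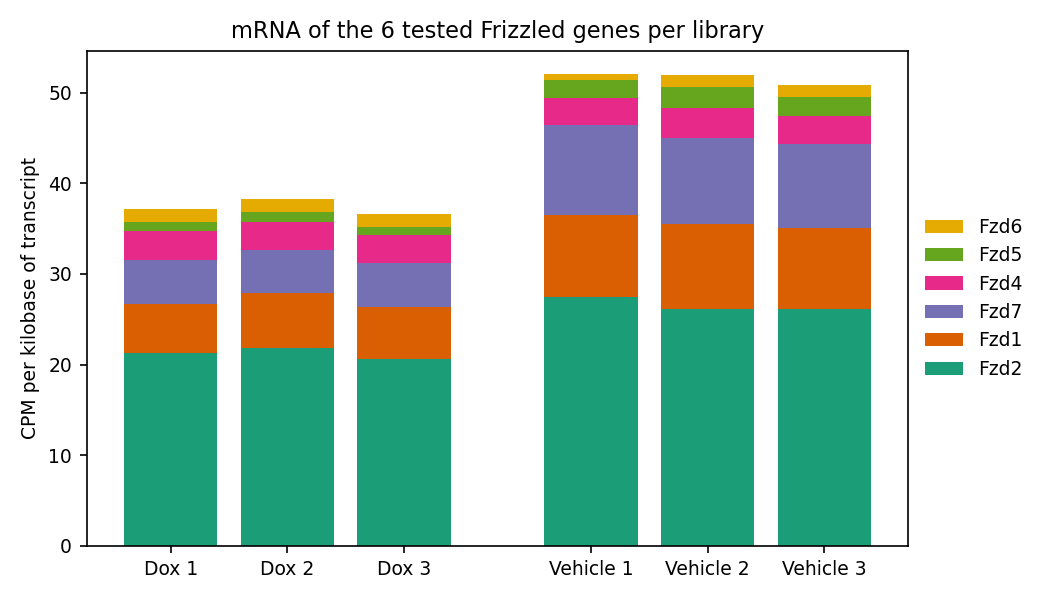
mRNA of the 6 tested Frizzled genes, Fzd3 not included and Fzd8 and Fzd9 too low to show, in each library as CPM per kilobase of transcript (vertical axis, from 0), stacked by receptor, with the 3 Dox libraries at the left and the 3 Vehicle libraries at the right. With Fzd8 and Fzd9 added, the sums were 36.6 to 38.3 with Dox and 50.9 to 52.0 with Vehicle, with Fzd2 the largest block in each.

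Promoter sequence was looked at because KLF factors bind GC-rich and CACCC elements and because Fzd7, Fzd5 and Fzd1 fell while Fzd4 did not pass the test. RefSeq windows (GRCm38.p6) were taken for 5 of the 10 genes, and the 250 bases before the start are printed for these 4. Fzd2, Fzd6, Lrp5 and Lrp6 had no match, and Fzd8 was left out of this search, so whether it has a window was not determined. Capitals mark GGGCGG or CCGCCC (the GC box on either strand) and CACCC or GGGTG, overlapping matches included.
Fzd7: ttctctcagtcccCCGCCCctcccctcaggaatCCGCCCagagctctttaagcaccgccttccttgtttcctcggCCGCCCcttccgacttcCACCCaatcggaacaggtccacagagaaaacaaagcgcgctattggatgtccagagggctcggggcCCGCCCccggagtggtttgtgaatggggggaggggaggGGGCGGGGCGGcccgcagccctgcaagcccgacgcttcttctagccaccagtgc
Fzd5: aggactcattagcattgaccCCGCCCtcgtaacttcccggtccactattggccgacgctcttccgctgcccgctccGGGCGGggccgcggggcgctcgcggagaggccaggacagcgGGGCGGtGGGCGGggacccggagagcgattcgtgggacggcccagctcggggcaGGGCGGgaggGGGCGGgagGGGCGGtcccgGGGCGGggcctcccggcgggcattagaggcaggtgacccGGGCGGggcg
Fzd1: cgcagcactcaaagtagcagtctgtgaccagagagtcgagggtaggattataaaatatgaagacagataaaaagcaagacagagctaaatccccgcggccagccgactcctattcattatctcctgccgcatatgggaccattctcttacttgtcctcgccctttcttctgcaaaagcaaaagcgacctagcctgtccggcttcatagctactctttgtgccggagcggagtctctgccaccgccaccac
Fzd4: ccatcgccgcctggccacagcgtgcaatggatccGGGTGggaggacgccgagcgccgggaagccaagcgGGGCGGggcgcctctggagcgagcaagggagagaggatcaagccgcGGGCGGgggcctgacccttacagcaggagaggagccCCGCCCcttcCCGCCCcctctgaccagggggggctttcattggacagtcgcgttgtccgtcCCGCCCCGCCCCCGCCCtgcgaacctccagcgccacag

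The windows are chr1:59481897-59482146 (plus strand), chr1:64737751-64738000 (minus), chr5:4758217-4758466 (minus) and chr7:89404116-89404365 (plus), in the order printed. The GC box occurred 6 times for Fzd7, 9 times for Fzd5, 0 times for Fzd1 and 7 times for Fzd4, and CACCC 1, 0, 0 and 1 times. Of 32851 promoter windows of this length, 32.7% held GGGCGG and 52.0% held CACCC on either strand. RefSeq places the Fzd7 and Fzd1 starts 277 and 181 bases before those of GENCODE M21, so the window depends on the annotation.

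The rest of the pathway was followed through 9 lists of related genes, 101 symbols in all, of which 53 were tested. Of these 30 fell, 6 rose and 17 did not pass, with a median log2 fold change of -0.35. Against the background of 28.8% lower and 25.9% higher, this is a count without a set test, as are the counts of each list below. With upper-quartile scaling 27 fell and 11 rose, and with an offset for transcript length 26 fell and 9 rose. With no filter 26 fell, as without Dox 3.

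Among ligands and their secretion, most WNT genes had few counts. Of 5 tested WNT genes 1 fell and 4 did not pass, and the one called was Wnt9a, a ligand gene at 1.02 ± 0.16 CPM with Dox and 4.54 ± 0.33 CPM with Vehicle (SD, n = 3 each). Wnt5a had the highest level of the WNT genes, 28.6 ± 7.16 CPM with Dox and 30.4 ± 1.41 CPM with Vehicle (SD, n = 3 each). It did not pass (log2 fold change -0.09 ± 0.17 SE, edgeR adjusted p = 0.69). Wls, which carries WNT proteins to the surface, was at 188, 196 and 200 CPM with Dox, against 276, 279 and 263 CPM with Vehicle (log2 fold change -0.49 ± 0.035 SE, edgeR adjusted p = 4.9e-05). Kremen1, the membrane protein through which Dickkopf removes LRP6, was at 8.69, 8.53 and 8.43 CPM with Dox, against 25.8, 26.6 and 25.9 CPM with Vehicle, a 3.05-fold fall (edgeR adjusted p = 1.7e-06). It was the one called gene of 2 tested antagonist genes.

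Of 3 tested genes that set how many Frizzleds stay at the surface, 2 fell, beside 28.8% of all tested genes called lower. Znrf3, a ubiquitin ligase that removes Frizzleds and LRP6, was at 18.5, 14.8 and 14.3 CPM with Dox, against 24.8, 24.8 and 26.0 CPM with Vehicle (log2 fold change -0.67 ± 0.10 SE, edgeR adjusted p = 0.0016). Lgr4, the R-spondin receptor that restrains that ligase, fell by 0.30 ± 0.041 on the log2 scale (edgeR adjusted p = 9.0e-04), and by 0.18 with the transcript length offset. Rnf43, the partner ligase, had no more than 3 counts in any library. Mesd, the chaperone LRP6 needs to fold, averaged 102 ± 10.4 CPM with Dox and 102 ± 6.76 CPM with Vehicle (SD, n = 3 each) and did not pass.

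Of the 3 Dishevelled genes, which act just below the receptors, 2 fell and 1 did not pass, beside 28.8% of all tested genes called lower. Dvl1 was at 52.8, 51.1 and 52.9 CPM with Dox, against 96.5, 101 and 102 CPM with Vehicle (log2 fold change -0.93 ± 0.033 SE, edgeR adjusted p = 3.6e-06). Its log2 fold change was -0.67 with the GC offset. Dvl2 fell by 0.39 ± 0.035 and Dvl3 had -0.09 ± 0.054 (SE, edgeR adjusted p = 1.3e-04 and 0.23), and with the GC offset Dvl2 fell by 0.23. Ccny, a cyclin that helps phosphorylate LRP6, fell by 0.38 ± 0.029 (SE, adjusted p = 6.7e-05), and by 0.23 with the length offset. Over the 9 tested receptor partners 5 fell, 2 rose and 2 did not pass, beside 28.8% lower and 25.9% higher over all tested genes.

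Other WNT receptors and polarity genes moved both ways, 3 higher and 3 lower of 10 tested. Over all tested genes 25.9% were called higher and 28.8% lower, so these shares are near the background. Vangl2, the core planar polarity protein, was at 1.97, 1.95 and 2.00 CPM with Dox, against 11.2, 12.1 and 11.1 CPM with Vehicle, a 5.82-fold fall (edgeR adjusted p = 1.5e-06). Prickle2, which binds Vangl proteins, rose by 0.91 ± 0.078 on the log2 scale (adjusted p = 1.1e-04), and Sdc4, a heparan sulfate proteoglycan, fell by 0.33 ± 0.023 (adjusted p = 4.5e-05). Ryk, an atypical WNT receptor, averaged 193 ± 7.35 CPM with Dox and 187 ± 3.40 CPM with Vehicle (SD, n = 3 each) and did not pass, except with upper-quartile scaling (log2 fold change 0.14, adjusted p = 0.013).

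Inside the cell, 7 of 10 tested core genes fell and 0 rose, and all 5 tested TCF/LEF factors and common targets fell. Over all tested genes 28.8% were called lower. The second list held 10 symbols, of which Axin2 and Sp5 were not found and Tcf7, Nkd1 and Nkd2 had too few counts to test. Besides TCF/LEF factors, the genes tested in it were Ccnd1 and Myc. Tcf7l1 and Tcf7l2 passed nearer the threshold than its other tested genes (edgeR adjusted p = 0.033 and 0.036). Btrc, which marks beta-catenin for destruction, fell 2.84-fold, with 7.56, 7.15 and 8.10 CPM with Dox, against 21.6, 21.9 and 21.2 CPM with Vehicle. Axin1, the scaffold that LRP6 binds, fell by 0.49 ± 0.039 and Csnk1g2, a casein kinase that phosphorylates LRP6, by 0.51 ± 0.026 on the log2 scale (SE, edgeR adjusted p = 8.2e-05 and 1.1e-05), and with the GC offset Csnk1g2 fell by 0.26. Lef1 fell by 1.18 ± 0.11, Myc by 0.55 ± 0.097 and Ccnd1 by 0.20 ± 0.022 (SE, adjusted p = 1.3e-04, 0.003 and 2.9e-04), and with upper-quartile scaling Ccnd1 fell by 0.11. These genes include both activators and inhibitors of the pathway. Dvl2, Btrc, Lef1, Ccnd1, Lrp10 and Mesd share exonic bases with another annotated gene, so their counts are uncertain where reads could be split.

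Relatives of LRP5 and LRP6 that do not carry WNT signals in this way were followed for contrast. Of 7 tested LDL receptor relatives 5 fell, 1 rose and 1 did not pass, beside 28.8% lower and 25.9% higher over all tested genes. Lrp1, a large endocytic receptor, was at 709, 762 and 651 CPM with Dox, against 1192, 1354 and 1254 CPM with Vehicle (log2 fold change -0.84 ± 0.070 SE, edgeR adjusted p = 9.6e-05). Its log2 fold change was -0.56 with the transcript length offset and -0.66 with the GC offset. Lrp10 fell by 0.60 ± 0.034 and Lrp12 by 0.35 ± 0.035 (SE, adjusted p = 1.9e-05 and 2.4e-04), and with the GC offset Lrp10 fell by 0.39. Their intervals, -0.69 to -0.52 for Lrp10 and -0.43 to -0.26 for Lrp12, do not overlap the -0.08 to 0.17 of Lrp6.

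**Figure D4:**
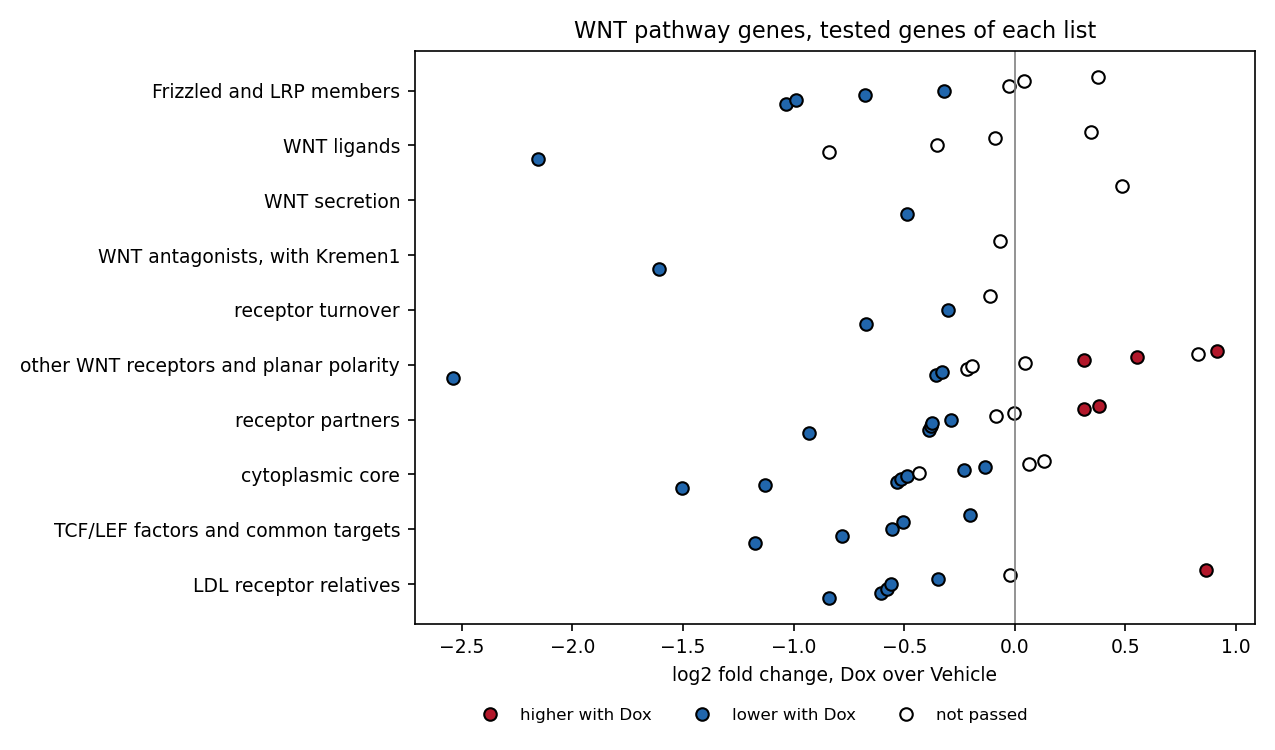
Log2 fold change, Dox over Vehicle (horizontal axis), of each tested gene in the receptor set and in the 9 pathway lists (rows). Red circles rose, blue circles fell and open circles did not pass (edgeR adjusted p under 0.05), with vertical offsets only for display. Falls make up 30 of the 53 tested pathway genes, with Vangl2 at -2.54 and Wnt9a at -2.16 farthest left.

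As a description of pattern, the genes with log2 CPM most like Fzd2 over the 6 libraries, among 10132 with a mean of at least 10 CPM, were Slc12a9 (Pearson r = 0.9994), Rnf19b (0.9988) and Paip1 (0.9984). For Lrp6 they were Fndc3a (0.9809), Taf2 (0.9709) and Dmxl1 (0.9708). Among the receptors, Fzd1, Fzd2, Fzd5 and Fzd7 had r of 0.971 to 0.984 with each other. All these values share the same 6 libraries in 2 treatment groups, so a difference between the groups enters each r.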

How the data were processed

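Whole-number counts for each gene, 1 column per library, were deposited. Whether they are reads counted directly or estimates from transcript coverage is not stated in the sources used here. The authors' own comparison of Dox with Vehicle, also deposited, holds per the file headers the average signal after normalization, a log2 fold change and its error, a statistic (score) and p-values. FastQC 0.11.3, HISAT2 2.1.0, StringTie 1.3.3, DESeq2 and GRCm38 appear in the submitters' processing notes without a role. No source used here gives the annotation, the strand setting or the treatment of shared reads.

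Columns were matched to samples by the labels' descriptions. The 18067 genes passing filterByExpr were scaled by TMM (factors 0.97 to 1.03) and compared by edgeR 4.0.16's quasi-likelihood test (R 4.3.3), with no covariate and Benjamini-Hochberg adjustment over all of them. The SE of a fold change is its size divided by the square root of F. Chi-square per degree of freedom between replicates was 11.1 to 13.8, so no library was a copy of another. Receptors, lists and tests were chosen with earlier results of these data known. Named are the 10 receptors, Klf13, up to 3 called genes of smallest p per list, tested genes acting on the receptors from a fixed list, and the 3 genes of highest r for Fzd2 and Lrp6. Wnt5a was added for its level, and Tcf7l1, Tcf7l2 and the untested symbols of the TCF/LEF list are named as a limit. A planned ratio of Lrp6 to Lrp5 is replaced by a share, since Lrp5 had 0 counts in some libraries. Alternatives used DESeq2's size factors, scaling to the upper quartile, DESeq2 1.42.0's Wald test, voom in limma 3.58.1, all genes unfiltered, genes of at least 5 CPM, a block for the replicate number, offsets for length or GC content (95.1% of tested genes matched) and omission of each library. Ratios to Fzd4, sums per kilobase and the Fzd2 share were added after seeing the data.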

Additional observations from a re-analysis of the deposited data

How the results depend on the processing

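Fzd1, Fzd2, Fzd5 and Fzd7 fell and passed the test in all 15 alternative settings, with log2 fold changes of -0.71 to -0.58, -0.34 to -0.19, -1.08 to -0.86 and -1.01 to -0.89. The number of receptors called lower was 4 in each. The number called higher was 1 with upper-quartile scaling (Lrp6, log2 fold change 0.137) and 2 with the transcript length offset (Lrp6 at 0.262 and Fzd4 at 0.144), against 0 in the other settings, and the cause was not tested. Fzd4 was 0.067 with upper-quartile scaling. With each library left out in turn, Fzd4 ran from -0.061 to 0.004, Lrp6 from -0.003 to 0.091 and Mesd from -0.088 to 0.049.

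Upper-quartile scaling moved the median of all genes to 0.111 and gave 11 rises among the pathway genes, a Frizzled sum of 163 CPM with Dox and 213 CPM with Vehicle (38.6 and 49.99 per kilobase) and an LRP sum of 106 CPM with Dox (11.4 per kilobase). It called 6246 genes higher and 4457 lower over all tested. In that setting Mesd was 0.091 and Dvl3 0.008. Mesd was also above 0 with no filter (0.005), the 5 CPM filter (0.017) and the length offset (0.098).

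Calls made up 45.1% of genes with an adjusted p in the DESeq2 Wald test, 31.6% with no filter and 71.0% with the 5 CPM filter, which tested fewer genes. Deviations of libraries with the same number correlated at 0.069, 0.052 and -0.094, so these numbers were treated as names only. The replicate block gave 0 receptors higher and 4 lower, and 7 pathway genes higher and 29 lower. Depth limits Fzd8, Fzd9 and Lrp5, for which no change could be measured.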
